A study of Rattus norvegicus with 9 samples.

Results

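Amino acids enter and leave cells through solute carriers, and the genes described here are the rat genes named Slc1a, Slc3a, Slc6a, Slc7a, Slc36a, Slc38a and Slc43a followed by a number. They were taken by name alone from the count table, which holds 58 of them among 17337 genes. The 58 comprise 7 Slc1 genes, 2 Slc3 genes, 18 Slc6 genes, 15 Slc7 genes, 4 Slc36 genes, 9 Slc38 genes and 3 Slc43 genes. Of these, 35 had enough counts to be tested for a difference between ages, out of 11337 genes tested in all. RNA was sequenced from cultured cardiac fibroblasts, the connective-tissue cells that lay down the matrix of the heart, of Sprague Dawley rats at 3 ages. The fetal cells were from embryonic day 18, the neonatal cells from postnatal day 1 and the adult cells from 7-week-old animals, with 3 libraries per age and no genetic or drug treatment in the labels. Per the labels' protocols, unpassaged cells of every age were grown to confluency in DMEM with serum and ascorbic acid and lysed in TRIzol, so the values describe cells in rich medium. No sort is mentioned, and the labels do not say whether the cultures of an age came from separate litters or animals, so p-values measure only the spread between these libraries, which may be technical.

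Carriers of these families differ in what they move and in what drives them. SLC7 proteins are either single-chain carriers of the cationic amino acids arginine, lysine and ornithine, or light chains that reach the cell surface bound to an SLC3 heavy chain and exchange one amino acid for another. SLC1, SLC6 and SLC38 proteins use sodium to concentrate their substrates, SLC36 proteins are coupled to protons and SLC43 proteins let large neutral amino acids through by facilitated diffusion. In fibroblasts such carriers supply the glycine, proline and glutamine that collagen synthesis consumes, and the leucine and arginine that the growth kinase complex mTORC1 senses. Many carrier genes are known targets of the transcription factor ATF4 in the response to amino acid shortage.

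In the library totals, assigned counts ranged from 13392825 to 22850491. Levels are given as CPM, a gene's counts per 1000000 assigned counts after scaling for library composition by the TMM method, and levels of different genes are compared only as CPM per kilobase of annotated exon. The summed level of 10 fibroblast markers was 26484 to 53231 CPM in fetal, 70646 to 76889 in neonatal and 26657 to 34594 in adult libraries. From fetal to neonatal cultures 4 of these were called higher, and from neonatal to adult cultures 3 were called higher and 4 lower. Col1a2, a collagen chain gene among them, was listed at only 0.053 to 0.976 CPM. Fetal replicate 3 stood apart, with 251 CPM of 5 epithelial markers against 13.5 and 15.2 in the other fetal libraries and with the lowest fibroblast sum. Of 12 macrophage markers, 12 were called higher in the adult than at either younger age, with a summed level of 14.5 to 66.7 CPM in fetal libraries, 152.5 to 169 CPM at the neonatal age and 4057 to 5479.8 CPM in adult libraries. Cd163 was at 0 in all fetal and neonatal libraries. Of 13 cardiomyocyte markers, 13 were called lower in the adult than at either younger age, with sums of 7447 to 11005, 5150 to 5705 and 311 to 323 CPM, and Csrp3 was at 0 in all adult libraries. From fetal to neonatal cultures 8 of the macrophage markers were called higher and 11 of the cardiomyocyte markers lower. Mural cell markers summed to 269 to 701 CPM in fetal, 1178 to 1238 in neonatal and 189 to 350.1 in adult libraries, with 3 of 6 called higher in neonatal than fetal and 5 lower in adult than neonatal cultures. Endothelial markers summed to 17.1 to 20.7, 23.6 to 28.8 and 92.3 to 107.9 CPM. Of 7 tested, 4 were called higher and 1 lower from fetal to adult, and 5 and 2 from neonatal to adult cultures. Tie1 alone was at a mean of 70.3 CPM in adult cultures, against 1.80 in neonatal and 0.42 in fetal. Epicardial or mesothelial markers summed to 69.6 to 203, 32.3 to 34.9 and 14.7 to 34.1 CPM. Several of these sums differed between the ages compared below. The fibroblast and mural sums of fetal and adult libraries overlapped, as did the epicardial or mesothelial sums of neonatal and adult libraries. The part of these cell types in the differences given below was not tested. In such bulk samples, fewer cells of a type and less RNA per cell cannot be told apart.

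Carrier genes were called in both directions in each pair of ages. A gene was called where its edgeR p-value, adjusted over all 11337 genes tested, was under 0.05. From fetal to neonatal cultures, 19 of the 35 tested carrier genes were called, 11 higher and 8 lower, beside 36.3% of all genes tested (18.3% higher and 18% lower). Scaled by library size alone, the same number was called but with 8 higher and 11 lower. That scaling moved the median of all genes by -0.17 on the log2 scale for this pair and by -0.11 from fetal to adult. From fetal to adult cultures 25 were called, 11 higher and 14 lower, beside 70.5% of all genes (34.9% higher and 35.5% lower). From neonatal to adult cultures 19 were called, 6 higher and 13 lower, beside 63.5% of all genes (31.6% higher and 31.8% lower). As shares of the tested carrier genes these were 54.3%, 71.4% and 54.3%.

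The size of the changes was read the same way. A call with a log2 fold change of at least 1 in size was made for 10 carrier genes from fetal to neonatal cultures, 3 higher and 7 lower, beside 11.2% of all genes (5.8% higher and 5.42% lower). From fetal to adult cultures there were 15, 5 higher and 10 lower, beside 32.4% (16.6% and 15.8%). From neonatal to adult cultures there were also 15, again 5 higher and 10 lower, beside 25% (12.8% and 12.2%). The libraries of the ages compared did not overlap for 24 of the 35 carrier genes in each pair, beside 57.4%, 71.8% and 76.1% of all genes. Median log2 fold changes of the tested carrier genes were 0.17 from fetal to neonatal, -0.20 from fetal to adult and -0.061 from neonatal to adult cultures, beside medians of -0.0053, -0.013 and -0.0065 over all genes. An F test over the 3 ages called 27 of the 35, beside 77.6% of all genes. The 3 pairs share libraries, so their calls are not independent of each other.

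Sorted by their calls, 5 of the 35 genes were higher in adult cultures than at both younger ages, beside 26.5% of all genes tested: Slc7a8, Slc1a7, Slc6a12, Slc43a2 and Slc43a3. Another 11 were lower in adult cultures than at both, beside 26.7% of all genes: Slc7a1, Slc7a3, Slc7a5, Slc3a1, Slc1a3, Slc1a4, Slc38a1, Slc38a2, Slc38a4, Slc6a15 and Slc6a17. Another 6, Slc3a2, Slc36a4, Slc38a9, Slc43a1, Slc6a7 and Slc6a9, were called in no pair, and the other 29 were called in at least 1, beside 81.6% of all genes. Fetal replicate 3 was below both other fetal libraries for 22 of the 35 genes and above both for 10, and its effect is given where it changes a call.

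**Figure D1:**
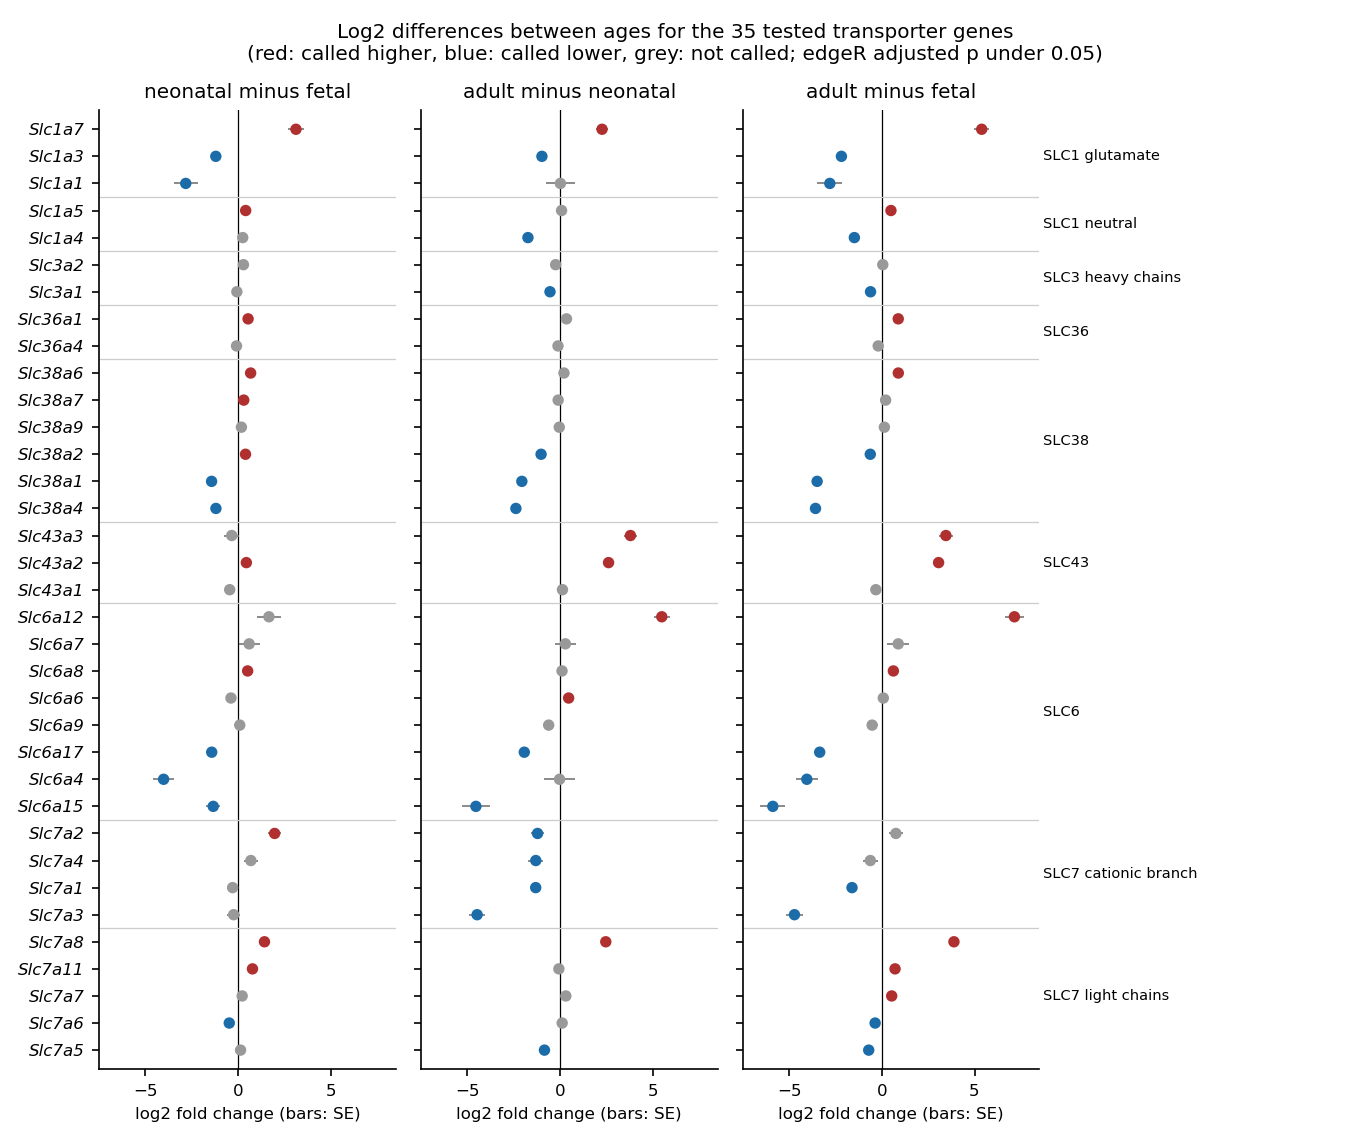
Log2 fold changes of the tested carrier genes in the 3 pairs of ages, with bars of 1 SE from the edgeR fit over 9 libraries. Points are red for genes called higher, blue for genes called lower (adjusted p under 0.05) and grey for genes not called. Slc6a12 lies farthest to the right in both adult panels, and the fitted value of Slc6a15, whose adult libraries hold at most 3 counts, is no measure of its size.

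Promoter sequence was looked at for motifs of known regulators of these genes. RefSeq promoter windows (assembly GRCr8, 250 bases before to 50 after a transcript start) were found for 45 of the 58 genes, 27 of them tested. The C/EBP-ATF response element, searched as TGATGNAA on both strands, was present in 3 of the 27. It was in 10.0% of the 30 windows of those 27 genes, beside 3.98% of 33469 windows of all genes, tested or not. The 3 genes were Slc1a4, Slc38a1 and Slc7a1, whose matches are in capitals in the stretches below. The stretch of Slc7a1 is at chr12:11664408-11664487 on the plus strand, that of Slc1a4 at chr14:98761740-98761812 on the minus strand and that of Slc38a1 at chr7:129681486-129681593 on the minus strand, each printed 5′ to 3′ along the gene. In Slc1a4 the match runs on the opposite strand and so reads as its reverse complement.
Slc7a1: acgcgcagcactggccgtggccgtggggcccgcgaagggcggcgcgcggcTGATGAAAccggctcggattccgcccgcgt
Slc1a4: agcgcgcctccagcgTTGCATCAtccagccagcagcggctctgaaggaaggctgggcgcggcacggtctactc
Slc38a1: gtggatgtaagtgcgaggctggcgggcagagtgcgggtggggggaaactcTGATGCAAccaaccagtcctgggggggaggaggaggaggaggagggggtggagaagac
The E-box bound by the MYC and TFE families, searched as CACGTG (which reads the same on both strands), was present in 6 of the 27 (Slc1a4, Slc1a7, Slc36a1, Slc38a7, Slc43a1 and Slc7a5) and in 6.42% of all windows. The window of Slc7a5, the most abundant light chain gene, holds it at chr19:66872536-66872641 on the minus strand, in capitals here.
Slc7a5: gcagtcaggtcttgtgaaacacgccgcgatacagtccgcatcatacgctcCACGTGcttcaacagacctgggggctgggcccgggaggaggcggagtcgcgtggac
The antioxidant response element, searched as TGACNNNGC on both strands, was present in 7 of the 27. It was in 23.3% of their 30 windows, beside 12.1% of all windows. In Slc36a1 a match of the antioxidant element overlaps an E-box, and no other matches of different motifs overlap. The 3 tested genes with the C/EBP-ATF element are among the 11 carrier genes called lower in adult cultures than at both younger ages, beside the 26.7% of all genes with those calls. Of the 6 tested genes with an E-box, Slc1a4, which holds both motifs, and Slc7a5 were called lower than at both, Slc1a7 higher than at both, Slc36a1 higher than in fetal cultures alone, and Slc38a7 and Slc43a1 in neither adult pair. A match describes the letters of a window and is not a measured binding site.

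Of the 4 tested genes of the cationic branch, 4 were called lower in adult than in neonatal cultures, beside 31.8% of all genes. Against fetal cultures 2 were called lower, beside 35.5% of all genes, and the make-up of the group differed between ages. Slc7a1 encodes the widespread carrier of arginine and lysine, known as CAT1 (chromosome 12, 8032775 to 8108972 in the rn6 annotation of the count table). It was at 182, 174 and 156 CPM in the fetal libraries, 134, 144 and 137 in the neonatal and 41.5, 61.7 and 64.2 in the adult. All adult libraries lay below all others, and the fetal libraries lay above the neonatal. Here and below, differences are log2 fold changes of the later over the earlier age, given in log2 units. They were -1.61 log2 units (SE 0.15, edgeR adjusted p = 8.97e-06) from fetal to adult and -1.31 log2 units (SE 0.15, edgeR adjusted p = 4.94e-05) from neonatal to adult cultures. The smaller difference between fetal and neonatal cultures, -0.30 log2 units (SE 0.14, edgeR adjusted p = 0.126), was not called. It was called without adult replicate 1, at -0.30 log2 units (edgeR adjusted p = 0.0125), and in a fit of the 2 ages alone, at -0.30 log2 units (edgeR adjusted p = 0.0216). Scaled by library size alone it was called at -0.46 log2 units (edgeR adjusted p = 0.0295). Slc7a3 encodes another cationic carrier, CAT3, described mainly in brain (chromosome X, 70972771 to 70977628). Its levels were 103, 97.1 and 40.9 CPM in the fetal libraries, 68.1, 66.7 and 68.8 in the neonatal and 1.45, 2.96 and 4.72 in the adult. Adult levels were far under those of both younger ages, with fetal replicate 3 below the neonatal libraries and the other fetal libraries above them. The fold changes to adult cultures were -4.71 log2 units (SE 0.45, edgeR adjusted p = 1.72e-05) from fetal and -4.47 log2 units (SE 0.44, edgeR adjusted p = 3.53e-05) from neonatal. From fetal to neonatal cultures the value was -0.24 log2 units (SE 0.34, edgeR adjusted p = 0.602) and was not called, and without fetal replicate 3 it was -0.56 log2 units (edgeR adjusted p = 0.0432).

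Slc7a2, whose product CAT2 is a cationic carrier known for its induction in macrophages and by inflammatory signals, had its highest level in neonatal cultures (chromosome 16, 54460067 to 54513349). It was at 20.1, 24.99 and 7.22 CPM in the fetal libraries, 70.7, 73.9 and 60.8 in the neonatal and 35.5, 28.95 and 24.3 in the adult. The neonatal libraries lay above all others, as did their mural and fibroblast marker sums, and the adult libraries overlapped the fetal. The rise from fetal to neonatal cultures was 1.97 log2 units (SE 0.36, edgeR adjusted p = 0.00398), and the fall from neonatal to adult cultures -1.21 log2 units (SE 0.36, edgeR adjusted p = 0.0157). The fall was not called without adult replicate 3, at -1.09 log2 units (edgeR adjusted p = 0.05302), within a range of adjusted p-values of 5.71e-05 to 0.05302 over all alternatives, edgeR fits and 1 of DESeq2. From fetal to adult cultures 0.76 log2 units (SE 0.37, edgeR adjusted p = 0.0922) was not called. It was called without fetal replicate 2, at 1.11 log2 units (edgeR adjusted p = 0.0301), and with the replicate number as a block, at 0.85 log2 units (edgeR adjusted p = 0.0366). With DESeq2 in place of edgeR it was also called, at 0.76 log2 units (DESeq2 adjusted p = 0.0498). Slc7a4, a relative of the cationic carriers whose own transport activity is unsettled, was low at 1.03, 0.926 and 1.38 CPM in the fetal libraries, 1.21, 1.95 and 2.2 in the neonatal and 0.382, 1.01 and 0.749 in the adult (chromosome 11, 87446261 to 87449932). Adult libraries lay below the neonatal, with -1.31 log2 units (SE 0.40, edgeR adjusted p = 0.0179). That call was lost without adult replicate 1 (-1.01), neonatal replicate 2 (-1.24) or neonatal replicate 3 (-1.15), with adjusted p-values (edgeR or DESeq2) of 0.00884 to 0.0677 over all alternatives. Summed per kilobase over the 5 genes of the branch, the level was 70.7 ± 21.2 (SD, n = 3) in fetal, 79.7 ± 2.47 in neonatal and 21.4 ± 0.785 in adult cultures. Within that sum the share of Slc7a3 was 51.8% ± 8.75, 40.2% ± 1.87 and 6.65% ± 3.51, and the share of Slc7a2 was 8.85% ± 2.83, 32.5% ± 2.32 and 52.6% ± 11.6. Slc7a1 held 38.6% ± 10.8, 26.3% ± 0.769 and 39.2% ± 7.71, with overlapping fetal and adult libraries.

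**Figure D2:**
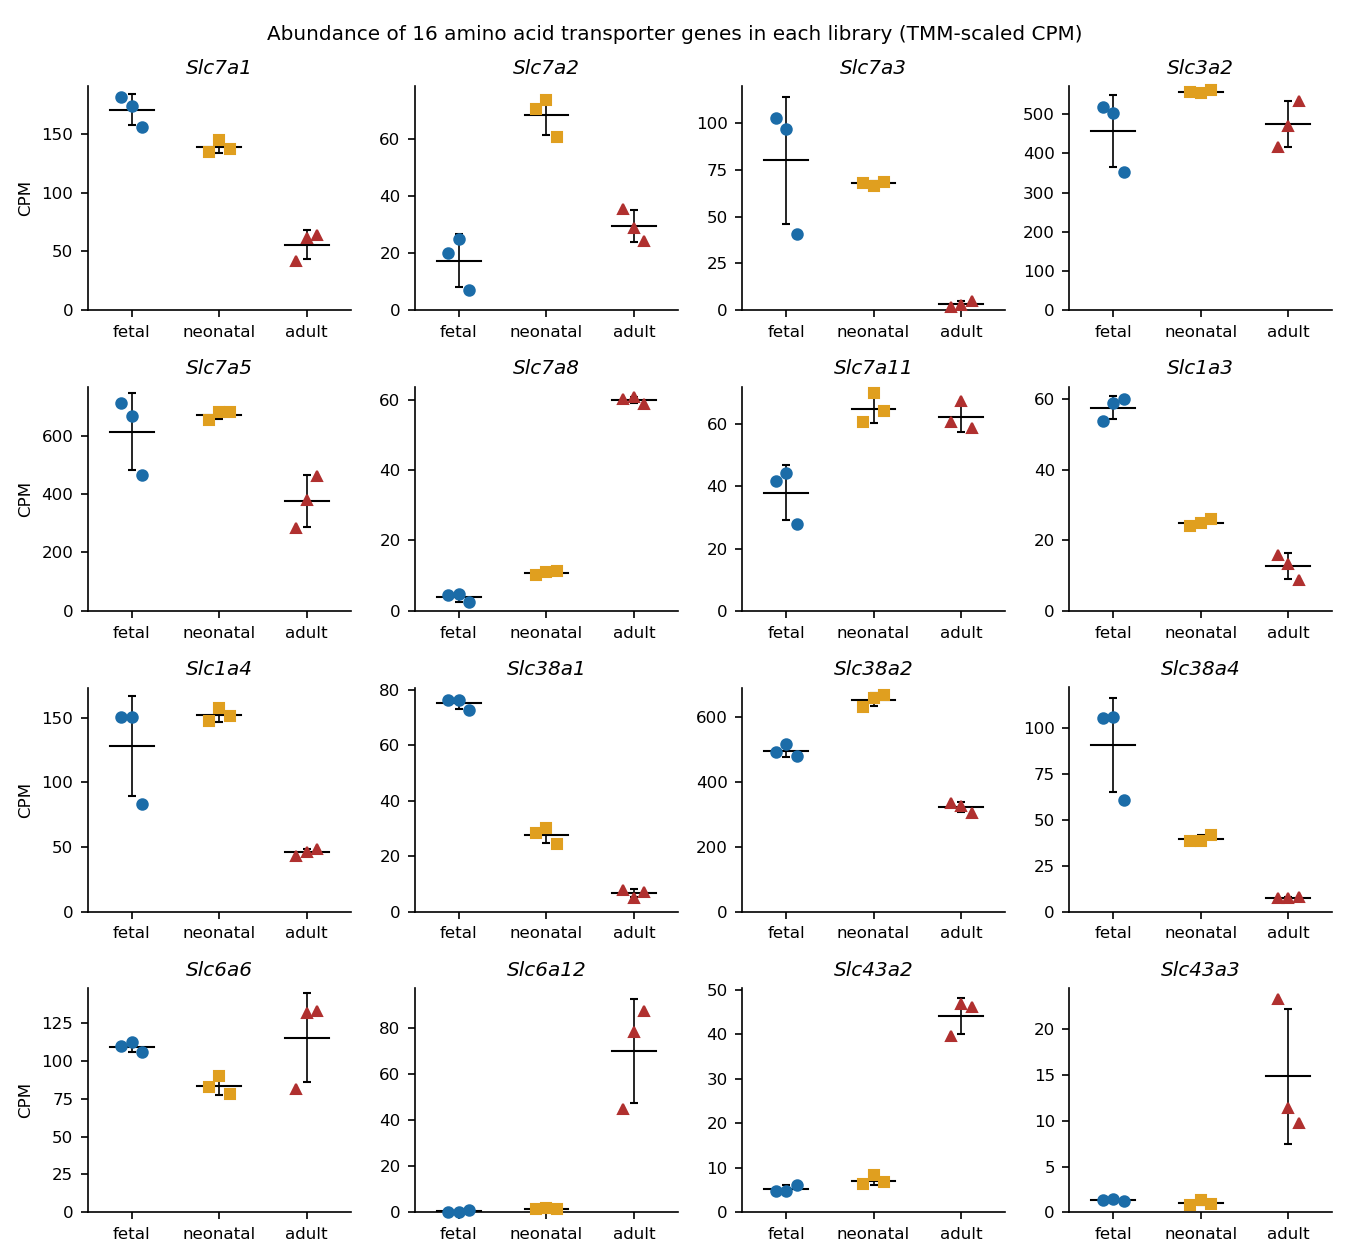
Levels of 16 carrier genes in each of the 9 libraries, in CPM on linear axes that start at 0, with points for the libraries and lines for the mean of each age. Adult libraries of Slc7a3, Slc38a1 and Slc38a4 sit near 0, while those of Slc7a8, Slc6a12 and Slc43a2 sit above all fetal and neonatal libraries.

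Among the heterodimeric exchangers the heavy chain gene Slc3a2 was called in no pair of ages, and the 5 tested light chain genes were each called in at least 1, as were 81.6% of all genes. Slc3a2 encodes the heavy chain CD98, which carries several SLC7 light chains to the membrane (chromosome 1, 224906566 to 224921029). Its levels were 519, 502 and 352 CPM in the fetal libraries, 558, 554 and 562 in the neonatal and 417, 471 and 534 in the adult. All neonatal libraries lay above the others, which overlapped. No pair was called: the fold changes were 0.28 log2 units (SE 0.14, edgeR adjusted p = 0.14996) from fetal to neonatal, 0.049 log2 units (SE 0.14, edgeR adjusted p = 0.775) from fetal to adult and -0.24 log2 units (SE 0.14, edgeR adjusted p = 0.182) from neonatal to adult cultures. Without fetal replicate 3 the last was called, at -0.24 log2 units (edgeR adjusted p = 0.0146). In a fit of the 2 ages alone it was also called, at -0.24 log2 units (edgeR adjusted p = 0.0295). Slc3a1, the heavy chain known from kidney and intestine as the partner of Slc7a9, was at 3.2 to 5.9 CPM in every library and was called lower in adult cultures, with -0.61 log2 units (SE 0.16, edgeR adjusted p = 0.00799) against fetal and -0.54 log2 units (SE 0.17, edgeR adjusted p = 0.0171) against neonatal cultures.

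Slc7a5, whose product LAT1 brings in leucine and other large neutral amino acids in exchange for glutamine, was the most abundant light chain gene (chromosome 19, 54693959 to 54722563). It was at 711, 666 and 466 CPM in the fetal libraries, 654, 681 and 681 in the neonatal and 284, 380.1 and 463 in the adult. Adult libraries lay below all others by a narrow margin, since adult replicate 3 nearly met fetal replicate 3. The fall was -0.71 log2 units (SE 0.19, edgeR adjusted p = 0.00848) from fetal and -0.84 log2 units (SE 0.19, edgeR adjusted p = 0.00407) from neonatal cultures, and the younger ages were not called apart, with 0.13 log2 units (SE 0.19, edgeR adjusted p = 0.618). Slc7a8 encodes LAT2, which exchanges a wider range of neutral amino acids (chromosome 15, 33369245 to 33428942). Its levels were 4.64, 4.94 and 2.44 CPM in the fetal libraries, 10.2, 10.96 and 11.2 in the neonatal and 60.1, 60.6 and 58.8 in the adult. Each age lay above the one before with no overlap and the adult libraries were close together. The rises were 1.42 log2 units (SE 0.20, edgeR adjusted p = 0.000954) from fetal to neonatal, 3.89 log2 units (SE 0.20, edgeR adjusted p = 2.59e-07) from fetal to adult and 2.47 log2 units (SE 0.19, edgeR adjusted p = 4.32e-06) from neonatal to adult cultures.

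Slc7a11, the light chain xCT that takes up cystine for glutathione in exchange for glutamate, was at 41.6, 44.3 and 27.8 CPM in the fetal libraries, 60.6, 69.8 and 64.1 in the neonatal and 60.5, 67.4 and 58.6 in the adult (chromosome 2, 139453774 to 139528162). The fetal libraries lay below all others, and the neonatal and adult libraries overlapped. It rose by 0.77 log2 units (SE 0.15, edgeR adjusted p = 0.00509) from fetal to neonatal and by 0.71 log2 units (SE 0.16, edgeR adjusted p = 0.00253) from fetal to adult cultures, with -0.061 log2 units (SE 0.15, edgeR adjusted p = 0.748) between the older ages. Slc7a6 encodes y+LAT2, which exports arginine against glutamine and sodium (chromosome 19, 38162515 to 38179149). It was at 123, 132 and 115 CPM in the fetal libraries, 86.9, 91.5 and 86.6 in the neonatal and 86.5, 103 and 97.9 in the adult. Fetal libraries lay above all others, with falls of -0.48 log2 units (SE 0.080, edgeR adjusted p = 0.00205) to neonatal and -0.36 log2 units (SE 0.080, edgeR adjusted p = 0.00261) to adult cultures. Slc7a7, the related y+LAT1 known from kidney, gut and macrophages, was at 24.3, 21.6 and 16.8 CPM in the fetal libraries, 24.5, 22.99 and 25.5 in the neonatal and 23.6, 33.5 and 33.6 in the adult (chromosome 15, 33013356 to 33052297). The fetal and adult libraries overlapped through adult replicate 1, yet the rise of 0.53 log2 units (SE 0.17, edgeR adjusted p = 0.0169) was called. It was lost without adult replicate 2, at 0.45 log2 units (edgeR adjusted p = 0.0658), and without adult replicate 3, at 0.45 log2 units (edgeR adjusted p = 0.0627), among a range of adjusted p-values (edgeR or DESeq2) of 0.00308 to 0.0658 over all alternatives. From neonatal to adult cultures 0.31 log2 units (SE 0.17, edgeR adjusted p = 0.125) was not called, except without adult replicate 1, at 0.46 log2 units (edgeR adjusted p = 0.0227), or without fetal replicate 3, at 0.31 log2 units (edgeR adjusted p = 0.0484).

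Per kilobase, the level of Slc3a2 was just below the summed level of its 6 light chain genes in fetal libraries and above it at the later ages. The ratio of heavy to light chains was 0.973, 0.985 and 0.952 in the fetal, 1.15, 1.09 and 1.11 in the neonatal and 1.45, 1.28 and 1.30 in the adult libraries. It was higher at each later age with no overlap, and no test was run on it. Of the light chain sum, Slc7a5 made up 78.1% ± 2.23 (SD, n = 3) in fetal, 80.9% ± 0.151 in neonatal and 63.0% ± 4.27 in adult cultures. The share of Slc7a8 went from 0.422% ± 0.0799 through 1.10% ± 0.0290 to 8.72% ± 1.68.

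**Figure D3:**
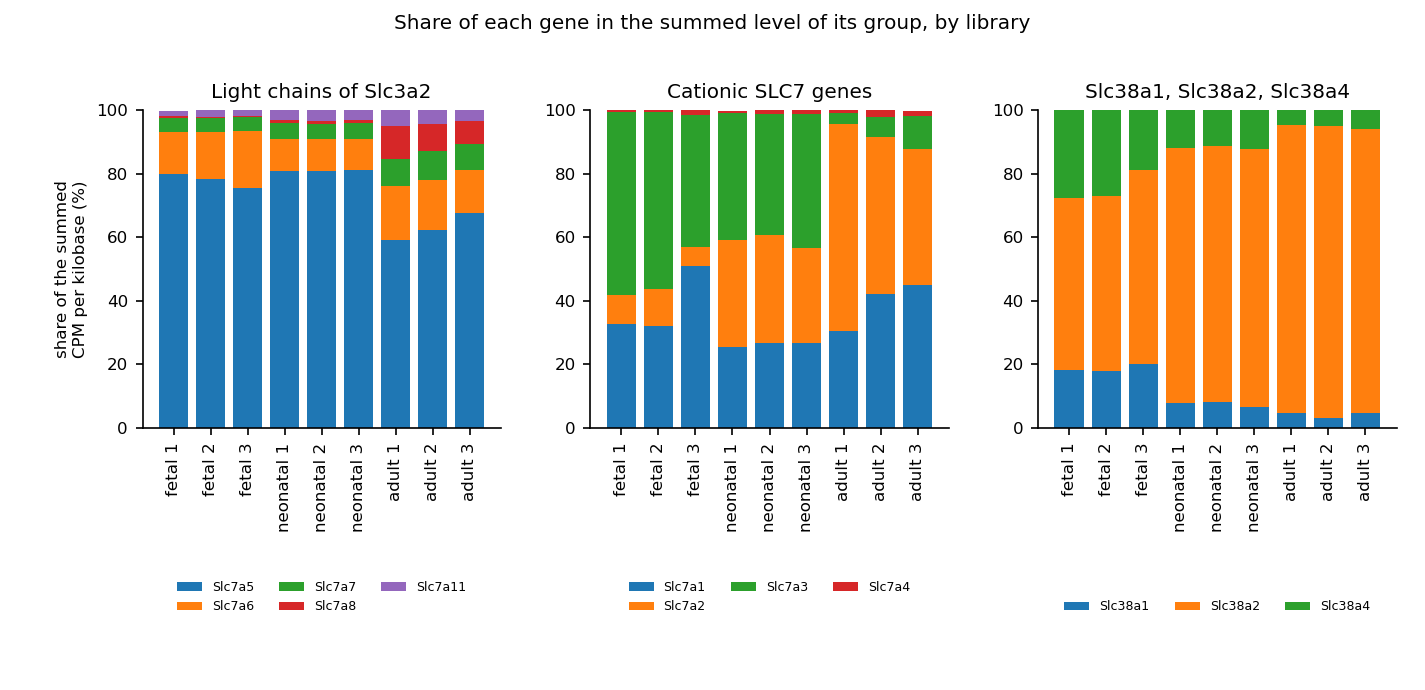
Share of each gene in the summed CPM per kilobase of its group, as stacked bars that reach 100% in each of the 9 libraries. In adult libraries the bars of Slc7a3, Slc38a1 and Slc38a4 are narrow, and Slc38a2 fills 89.7% to 91.9% of the right panel.

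Of the 3 facilitated SLC43 carriers, 2 were called higher in adult cultures than at both younger ages, beside 26.5% of all genes. Slc43a2 encodes LAT4, which lets branched-chain amino acids and phenylalanine cross the membrane (chromosome 10, 63677396 to 63719283). It was at 4.86, 4.76 and 6.27 CPM in the fetal libraries, 6.33, 8.36 and 6.79 in the neonatal and 39.5, 46.9 and 46.1 in the adult. Every adult library lay far above all others, and the neonatal libraries lay just above the fetal. The rise to adult cultures was 3.06 log2 units (SE 0.15, edgeR adjusted p = 1.93e-07) from fetal and 2.62 log2 units (SE 0.15, edgeR adjusted p = 8.21e-07) from neonatal. The call from fetal to neonatal cultures, 0.44 log2 units (SE 0.15, edgeR adjusted p = 0.04997), was at the threshold, with adjusted p-values (edgeR or DESeq2) of 0.00999 to 0.263 over the alternatives. It was lost without any 1 of 7 libraries: adult replicate 2 (0.44) or 3 (0.44), fetal replicate 1 (0.39) or 2 (0.37), and neonatal replicate 1 (0.53), 2 (0.31) or 3 (0.49). Slc43a3, a member of the family known to carry purine nucleobases, was at 1.35, 1.41 and 1.27 CPM in the fetal libraries, 0.825, 1.35 and 0.971 in the neonatal and 23.3, 11.4 and 9.81 in the adult (chromosome 3, 72330031 to 72350463). Adult libraries lay above all others, with adult replicate 1 the highest. The rises were 3.46 log2 units (SE 0.36, edgeR adjusted p = 2.14e-05) from fetal and 3.80 log2 units (SE 0.37, edgeR adjusted p = 2.17e-05) from neonatal cultures.

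Slc43a1, 65007 bases from Slc43a3 on chromosome 3, encodes LAT3, another carrier of branched-chain amino acids (chromosome 3, 72238796 to 72265023). It was at 32.5, 29.4 and 28.9 CPM in the fetal libraries, 20.9, 22.2 and 23.1 in the neonatal and 32.1, 25.2 and 15.3 in the adult. The adult libraries overlapped both younger ages, and no pair was called, with -0.46 log2 units (SE 0.21, edgeR adjusted p = 0.121) from fetal to neonatal, -0.32 log2 units (SE 0.21, edgeR adjusted p = 0.1999) from fetal to adult and 0.13 log2 units (SE 0.22, edgeR adjusted p = 0.613) from neonatal to adult cultures. Calls appeared under several alternatives. Fetal against neonatal was -0.62 log2 units (edgeR adjusted p = 0.0357) scaled by library size alone, -0.45 log2 units (edgeR adjusted p = 0.00737) in a fit of the 2 ages alone and -0.45 log2 units (edgeR adjusted p = 0.0138) without adult replicate 3. Fetal against adult was -0.58 log2 units (edgeR adjusted p = 0.0231) without adult replicate 1, and neonatal against adult 0.37 log2 units (edgeR adjusted p = 0.0263) without adult replicate 3. Per kilobase, Slc43a1 held 86.9% ± 1.53 (SD, n = 3) of the summed level of the 3 genes in fetal, 80.9% ± 2.52 in neonatal and 35.6% ± 5.70 in adult cultures, where Slc43a2 held 38.2% ± 11.0 and Slc43a3 26.2% ± 7.24.

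Of the 3 tested glutamate carriers of SLC1, Slc1a1 and Slc1a3 fell from the fetal to both later ages and Slc1a7 rose. Slc1a3 encodes GLAST, a sodium-driven glutamate and aspartate carrier best known from glia (chromosome 2, 57860881 to 57935363). It was at 53.8, 59.1 and 60.01 CPM in the fetal libraries, 24.1, 24.9 and 26.01 in the neonatal and 15.99, 13.3 and 8.83 in the adult. The ages did not overlap, and each later age was lower. The falls were -1.21 log2 units (SE 0.16, edgeR adjusted p = 0.000712) from fetal to neonatal, -2.18 log2 units (SE 0.17, edgeR adjusted p = 3.70e-06) from fetal to adult and -0.98 log2 units (SE 0.17, edgeR adjusted p = 0.00089) from neonatal to adult cultures. Slc1a7, a glutamate carrier with a large chloride conductance described in retina, went the other way at lower levels (chromosome 5, 127571114 to 127616033). Its levels were 0.324, 0.132 and 0.212 CPM in the fetal libraries, 1.71, 1.72 and 2.46 in the neonatal and 11.9, 10.5 and 5.91 in the adult. All 3 ages lay apart, with rises of 3.12 log2 units (SE 0.43, edgeR adjusted p = 0.000812), 5.39 log2 units (SE 0.41, edgeR adjusted p = 2.80e-06) and 2.27 log2 units (SE 0.32, edgeR adjusted p = 0.000207) in the same order of pairs. Slc1a1, the glutamate carrier of neurons and epithelia that also takes up cysteine, was at 1.35, 1.54 and 5.098 CPM in the fetal libraries, 0.3301, 0.279 and 0.518 in the neonatal and 0.612, 0.361 and 0.1497 in the adult (chromosome 1, 246955017 to 247035159). Fetal libraries lay above all others, and fetal replicate 3, the library with the epithelial markers, was the highest. The falls of -2.83 log2 units (SE 0.64, edgeR adjusted p = 0.00907) to neonatal and -2.81 log2 units (SE 0.67, edgeR adjusted p = 0.004196) to adult cultures shrank without that library to -1.97 log2 units (edgeR adjusted p = 0.00412) and -1.94 log2 units (edgeR adjusted p = 0.00259). Per kilobase, Slc1a3 held 90.6% ± 5.69 (SD, n = 3), 87.1% ± 1.83 and 47.1% ± 1.15 of the summed level of the 5 glutamate carrier genes at the 3 ages, and Slc1a7 held 0.505% ± 0.261, 9.59% ± 1.52 and 48.7% ± 2.81.

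The neutral SLC1 carriers parted in adult cultures. Slc1a4 encodes ASCT1, which exchanges serine, alanine, cysteine and threonine (chromosome 14, 104582884 to 104612417). It was at 150.4, 151 and 83.3 CPM in the fetal libraries, 147, 158 and 151 in the neonatal and 42.99, 46.3 and 48.2 in the adult. Adult libraries lay below all others, and fetal replicate 3 lay between them and the rest. The falls were -1.48 log2 units (SE 0.20, edgeR adjusted p = 0.000141) from fetal and -1.73 log2 units (SE 0.20, edgeR adjusted p = 7.69e-05) from neonatal cultures, while the younger ages gave 0.25 log2 units (SE 0.19, edgeR adjusted p = 0.341). Slc1a5 encodes ASCT2, an exchanger known for glutamine uptake in growing cells (chromosome 1, 78710686 to 78724789). Its levels were 145, 136 and 102 CPM in the fetal libraries, 167, 171 and 170.2 in the neonatal and 178, 175 and 186 in the adult. Fetal libraries were below neonatal and neonatal below adult, without overlap but by small steps. The rise was 0.49 log2 units (SE 0.11, edgeR adjusted p = 0.00352) from fetal to adult and 0.41 log2 units (SE 0.11, edgeR adjusted p = 0.0218) from fetal to neonatal cultures. The second call was lost without neonatal replicate 1 (0.42), 2 (0.40) or 3 (0.41), with adjusted p-values (edgeR or DESeq2) of 0.00232 to 0.06699 over all alternatives. Between neonatal and adult cultures it was 0.085 log2 units (SE 0.11, edgeR adjusted p = 0.534).

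Among the sodium-coupled neutral carriers of SLC38, Slc38a1 and Slc38a4 fell from age to age while Slc38a2 was highest in neonatal cultures. These 3 genes encode cell-surface carriers of alanine and other small neutral amino acids, and they lie side by side on chromosome 7. Slc38a1 is 49023 bases from Slc38a2, and Slc38a2 is 360777 bases from Slc38a4. Slc38a1 was at 76.4, 76.4 and 72.7 CPM in the fetal libraries, 28.4, 30.3 and 24.6 in the neonatal and 7.88, 5.05 and 7.11 in the adult (chromosome 7, 137975547 to 138039630). Each later age was lower with no overlap, with falls of -1.43 log2 units (SE 0.13, edgeR adjusted p = 9.05e-05) from fetal to neonatal, -3.49 log2 units (SE 0.15, edgeR adjusted p = 8.16e-08) from fetal to adult and -2.06 log2 units (SE 0.15, edgeR adjusted p = 3.35e-06) from neonatal to adult cultures. Slc38a4, a carrier known from liver and placenta, was at 105, 106 and 60.9 CPM in the fetal libraries, 38.5, 38.1 and 41.8 in the neonatal and 7.27, 7.29 and 8.16 in the adult (chromosome 7, 138461601 to 138512952). It too was lower at each later age with no overlap, and the falls were -1.20 log2 units (SE 0.19, edgeR adjusted p = 0.00157), -3.58 log2 units (SE 0.22, edgeR adjusted p = 7.53e-07) and -2.38 log2 units (SE 0.21, edgeR adjusted p = 1.40e-05) in the same order of pairs.

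Slc38a2 encodes SNAT2, the carrier of this family that cells are known to raise when amino acids are short or the medium is hypertonic (chromosome 7, 138088654 to 138100823). It was at 492, 518 and 481 CPM in the fetal libraries, 632, 660.3 and 669.9 in the neonatal and 336, 326 and 305 in the adult. Neonatal libraries were highest, here too with the highest mural and fibroblast marker sums, fetal libraries intermediate and adult libraries lowest, with no overlap. It rose by 0.40 log2 units (SE 0.067, edgeR adjusted p = 0.00224) from fetal to neonatal cultures and fell in adult cultures, with -0.62 log2 units (SE 0.067, edgeR adjusted p = 2.73e-05) against fetal and -1.02 log2 units (SE 0.068, edgeR adjusted p = 2.10e-06) against neonatal cultures. Per kilobase the 3 genes summed to 190.5 ± 17.8 (SD, n = 3) in fetal, 175.6 ± 4.32 in neonatal and 77.0 ± 3.30 in adult cultures. Slc38a2 held 56.8% ± 3.87 of that sum in fetal, 80.8% ± 0.470 in neonatal and 90.8% ± 1.14 in adult cultures.

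Of the other SLC38 genes, Slc38a6, whose substrates are little known, was at 7.83, 9.12 and 7.12 CPM in the fetal libraries, 12.5, 13.1 and 12.7 in the neonatal and 13.5, 16.5 and 14.6 in the adult (chromosome 6, 96171756 to 96241096). Fetal libraries lay below the neonatal and these below the adult. It rose by 0.67 log2 units (SE 0.13, edgeR adjusted p = 0.00413) from fetal to neonatal and 0.89 log2 units (SE 0.13, edgeR adjusted p = 0.000214) from fetal to adult cultures, with 0.21 log2 units (SE 0.13, edgeR adjusted p = 0.171) between the older ages. Slc38a7, known as a lysosomal exporter of glutamine and asparagine, was at 27.6, 24.9 and 23.6 CPM in the fetal libraries, 29.5, 32.7 and 31.6 in the neonatal and 32.3, 29.8 and 25.5 in the adult (chromosome 19, 9622636 to 9636947). The neonatal libraries lay above the fetal, and the adult libraries overlapped both. The rise of 0.30 log2 units (SE 0.10, edgeR adjusted p = 0.0484) between the younger ages was near the threshold and was lost without 6 of the 9 libraries, each left out in turn: adult replicate 2 (0.31), fetal replicate 2 (0.29) or 3 (0.25), and neonatal replicate 1 (0.35), 2 (0.27) or 3 (0.31). Its adjusted p-values (edgeR or DESeq2) ranged over 0.0287 to 0.286, the block by replicate number included (0.0556). From fetal to adult cultures 0.20 log2 units (SE 0.11, edgeR adjusted p = 0.113) was not called, but without adult replicate 3 it was 0.29 log2 units (edgeR adjusted p = 0.0278). Slc38a9, the lysosomal arginine sensor upstream of mTORC1, was called in no pair, with log2 fold changes of 0.17, 0.14 and -0.040.

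Of the 2 tested proton-coupled SLC36 carriers, 1 was called in at least 1 pair, beside 81.6% of all genes. Slc36a1 encodes a proton-coupled carrier of glycine, proline and alanine found on lysosomes (chromosome 10, 40543295 to 40573170). It was at 7.23, 7.32 and 5.84 CPM in the fetal libraries, 10.2, 10.6 and 8.74 in the neonatal and 14.5, 11.2 and 12.1 in the adult. Every adult library lay above every neonatal and every neonatal above every fetal library. It rose by 0.88 log2 units (SE 0.15, edgeR adjusted p = 0.00065) from fetal to adult and by 0.54 log2 units (SE 0.15, edgeR adjusted p = 0.0243) from fetal to neonatal cultures. The second call was lost without neonatal replicate 1 (0.52) or 2 (0.48) and when scaled by library size alone (0.37). Its adjusted p-values (edgeR or DESeq2) were 0.0123 to 0.0948 over the alternatives. The step from neonatal to adult cultures was 0.35 log2 units (SE 0.15, edgeR adjusted p = 0.0713) and was not called. It was called without fetal replicate 3, at 0.34 log2 units (edgeR adjusted p = 0.0333), and in a fit of the 2 ages alone, at 0.34 log2 units (edgeR adjusted p = 0.0492). Scaled by library size alone it was called at 0.41 log2 units (edgeR adjusted p = 0.0283). Slc36a4, a related carrier with high affinity for proline and tryptophan, was at 15.98, 16.4 and 20.4 CPM in the fetal libraries, 15.5, 17.7 and 16.4 in the neonatal and 13.4, 16.2 and 16.4 in the adult with overlapping ages (chromosome 8, 14239594 to 14269170). No pair of ages was called for it, and the adult against fetal value was -0.20 log2 units (SE 0.13, edgeR adjusted p = 0.197).

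SLC6 carriers use sodium and chloride to bring in osmolytes, creatine, glycine, other amino acids and transmitters. Slc6a12 encodes BGT1, the carrier of betaine and GABA known from kidney, where hypertonic medium raises it (chromosome 4, 153921199 to 153941333). It was at 0.162, 0.176 and 1.17 CPM in the fetal libraries, 1.43, 1.77 and 1.42 in the neonatal and 44.7, 78.3 and 87.4 in the adult. The adult libraries lay far above all others, and fetal replicate 3 held 22 counts against 3 and 4 in the other fetal libraries. The rise to adult cultures was 7.15 log2 units (SE 0.50, edgeR adjusted p = 2.80e-06) from fetal and 5.49 log2 units (SE 0.44, edgeR adjusted p = 9.65e-06) from neonatal. From fetal to neonatal cultures 1.66 log2 units (SE 0.66, edgeR adjusted p = 0.0801) was not called. Without fetal replicate 3 the 2 values against fetal were 3.14 log2 units (edgeR adjusted p = 0.02804) for neonatal and 8.63 log2 units (edgeR adjusted p = 4.00e-06) for adult cultures, and without adult replicate 1 the neonatal value was 1.67 log2 units (edgeR adjusted p = 0.0468). With the replicate number as a block it was 1.73 log2 units (edgeR adjusted p = 0.0461). Slc6a12 made up 0.276% ± 0.347 (SD, n = 3), 0.8003% ± 0.0741 and 25.1% ± 3.24 of the summed CPM per kilobase of the 18 SLC6 genes at the 3 ages. Slc6a13, another GABA carrier gene 9232 bases away, stayed below the count needed for a test.

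Slc6a6 encodes the taurine carrier (chromosome 4, 123642197 to 123713319). It was at 109.6, 112 and 106 CPM in the fetal libraries, 82.4, 89.7 and 78.1 in the neonatal and 81.3, 132 and 132 in the adult. Fetal libraries lay above the neonatal, and the adult libraries spanned the range, with adult replicate 1 well below the other adult libraries. The rise from neonatal to adult cultures, 0.47 log2 units (SE 0.16, edgeR adjusted p = 0.0317), was lost without adult replicate 2 (0.36) or 3 (0.35), fetal replicate 3 (0.46) or neonatal replicate 1 (0.45), 2 (0.52) or 3 (0.41), with adjusted p-values (edgeR or DESeq2) of 0.000103 to 0.119 over the alternatives. That rise was also lost in a fit of the 2 ages alone, at 0.46 log2 units (edgeR adjusted p = 0.0907). Without adult replicate 1, fetal against neonatal became -0.38 log2 units (edgeR adjusted p = 0.002895) and fetal against adult 0.28 log2 units (edgeR adjusted p = 0.008498), where the values over all libraries were -0.39 log2 units (SE 0.16, edgeR adjusted p = 0.0908) and 0.078 log2 units (SE 0.16, edgeR adjusted p = 0.683). Fetal against neonatal was also called scaled by library size alone, at -0.56 log2 units (edgeR adjusted p = 0.0289), and in a fit of the 2 ages alone, at -0.39 log2 units (edgeR adjusted p = 0.00695). Slc6a8 encodes the creatine carrier (chromosome X, 157129988 to 157139291). Its levels were 54.6, 54.96 and 37.1 CPM in the fetal libraries, 64.9, 70.98 and 73.4 in the neonatal and 74.97, 74.7 and 76.1 in the adult. Fetal libraries were lowest, and the adult libraries lay just above the neonatal. It rose by 0.51 log2 units (SE 0.14, edgeR adjusted p = 0.0172) from fetal to neonatal and 0.62 log2 units (SE 0.14, edgeR adjusted p = 0.002504) from fetal to adult cultures. The first call was lost without neonatal replicate 2 (0.50) or 3 (0.49), in a range of adjusted p-values (edgeR or DESeq2) of 0.00151 to 0.0606.

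Slc6a9 encodes the glycine carrier GlyT1 (chromosome 5, 136669674 to 136703697), and 23 of its exon bases are shared with Ccdc24 on the other strand. It was at 90.2, 85.5 and 35.4 CPM in the fetal libraries, 74.9, 74.3 and 75.3 in the neonatal and 40.5, 50.8 and 55.6 in the adult. Fetal replicate 3 lay below all adult libraries while the other fetal libraries lay above all others. No pair was called over all libraries, with 0.087 log2 units (SE 0.30, edgeR adjusted p = 0.842), -0.52 log2 units (SE 0.30, edgeR adjusted p = 0.147) and -0.61 log2 units (SE 0.30, edgeR adjusted p = 0.105) in the order of pairs used above. Without fetal replicate 3, adult cultures were called lower than fetal, with -0.85 log2 units (edgeR adjusted p = 3.13e-05), and lower than neonatal, with -0.62 log2 units (edgeR adjusted p = 0.000194). In a fit of the 2 ages alone they were also called lower than neonatal, with -0.62 log2 units (edgeR adjusted p = 0.000852).

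The remaining SLC6 genes with values to give were low and were called lower at both later ages than in fetal cultures. Slc6a17, a neutral amino acid carrier of synaptic vesicles, was at 6.53, 8.903 and 9.88 CPM in the fetal libraries, 2.696, 3.34 and 3.36 in the neonatal and 0.918, 0.939 and 0.599 in the adult (chromosome 2, 210249663 to 210299770). The ages did not overlap. The falls were -1.43 log2 units (SE 0.22, edgeR adjusted p = 0.00141), -3.35 log2 units (SE 0.26, edgeR adjusted p = 3.26e-06) and -1.93 log2 units (SE 0.27, edgeR adjusted p = 0.000205) in the order of pairs used above. Slc6a15, a carrier of branched-chain amino acids and proline known from brain, was at 1.35, 2.12 and 2.18 CPM in the fetal libraries, 0.605, 0.883 and 0.712 in the neonatal and 0, 0 and 0.0749 in the adult (chromosome 7, 45328225 to 45381920). The ages did not overlap either, and adult libraries held at most 3 counts. Adult cultures were at least 8.41-fold lower than fetal and at least 3.28-fold lower than neonatal cultures, against a floor of 3 counts per library, with edgeR adjusted p-values of 3.75e-05 and 0.00058. Its fall from fetal to neonatal cultures, -1.35 log2 units (SE 0.37, edgeR adjusted p = 0.0208), was lost without fetal replicate 2 (-1.25) or neonatal replicate 1 (-1.22), 2 (-1.51) or 3 (-1.31), in a range of adjusted p-values (edgeR or DESeq2) of 0.0133 to 0.09899. Slc6a4, the serotonin carrier, was at 1.94, 2.51 and 5.74 CPM in the fetal libraries, 0.165, 0.139 and 0.324 in the neonatal and 0.0765, 0.289 and 0.225 in the adult (chromosome 10, 63153656 to 63174820). Fetal libraries lay above all others, with fetal replicate 3 the highest. The falls were -4.02 log2 units (SE 0.58, edgeR adjusted p = 0.001001) from fetal to neonatal and -4.05 log2 units (SE 0.61, edgeR adjusted p = 0.000251) from fetal to adult cultures. They became -3.43 log2 units (edgeR adjusted p = 9.47e-05) and -3.45 log2 units (edgeR adjusted p = 3.91e-05) without that library. From neonatal to adult cultures -0.025 log2 units (SE 0.84, edgeR adjusted p = 0.981) was not called, and the libraries overlapped. Slc6a7, the proline carrier of brain, was called in no pair.

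The other 23 genes of the 58 were too low to test, with no more than 26 counts in any library and means of at most 0.917 CPM. Of these, 6 had no count in any library: Slc6a11, Slc6a18, Slc6a19, Slc7a12, Slc7a13 and Slc7a15. With those 6 included, 13 of the 23 held at most 3 counts in every library. Slc36a3, a neighbour of Slc36a1 on chromosome 10, was the highest of the 23, in adult cultures, at least 6.07-fold above fetal and 5.52-fold above neonatal cultures against the floor of 3 counts per library. On the same footing, adult cultures were at least 3.40-fold below fetal for Slc38a3, 2.63-fold for Slc38a5 and 1.65-fold for Slc7a9, the light chain partner of Slc3a1. Slc38a3 held 21, 26 and 0 counts in the fetal libraries, so fetal and adult libraries overlapped, and Slc7a9 held 3, 7 and 12. Without fetal replicate 3, an alternative chosen after seeing the data, these bounds were 5.10, 2.16 and 1.05, and that of Slc36a3 over fetal cultures was 6.23. No test was run on these genes.

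Ordered by level per kilobase, the same few genes led at every age. Slc3a2 came first at 220.3 ± 44.2 (SD, n = 3) in fetal, 268 ± 1.73 in neonatal and 228 ± 28.2 CPM per kilobase in adult cultures. Slc7a5 came next at 178 ± 37.6, 194 ± 4.496 and 109 ± 25.9, and overlapped Slc3a2 in fetal libraries only. Slc38a2 followed in fetal and neonatal cultures at 108 ± 4.14 and 142 ± 4.22, clear of its neighbours. In adult cultures it stood at 69.9 ± 3.43, not apart from Slc1a5 at 70.8 ± 2.38. Slc1a4 was next in fetal cultures at 64.2 ± 19.5, where it overlapped Slc1a5, and in neonatal cultures at 76.2 ± 2.66. In adult cultures Slc6a6 and Slc6a12 came after Slc38a2, at 46.5 ± 11.8 and 28.04 ± 9.001, and overlapped each other. All 58 genes summed to 970.2 ± 164 CPM per kilobase in fetal, 1043 ± 17.2 in neonatal and 776 ± 70.7 in adult cultures, and the fetal and adult libraries overlapped.

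**Figure D4:**
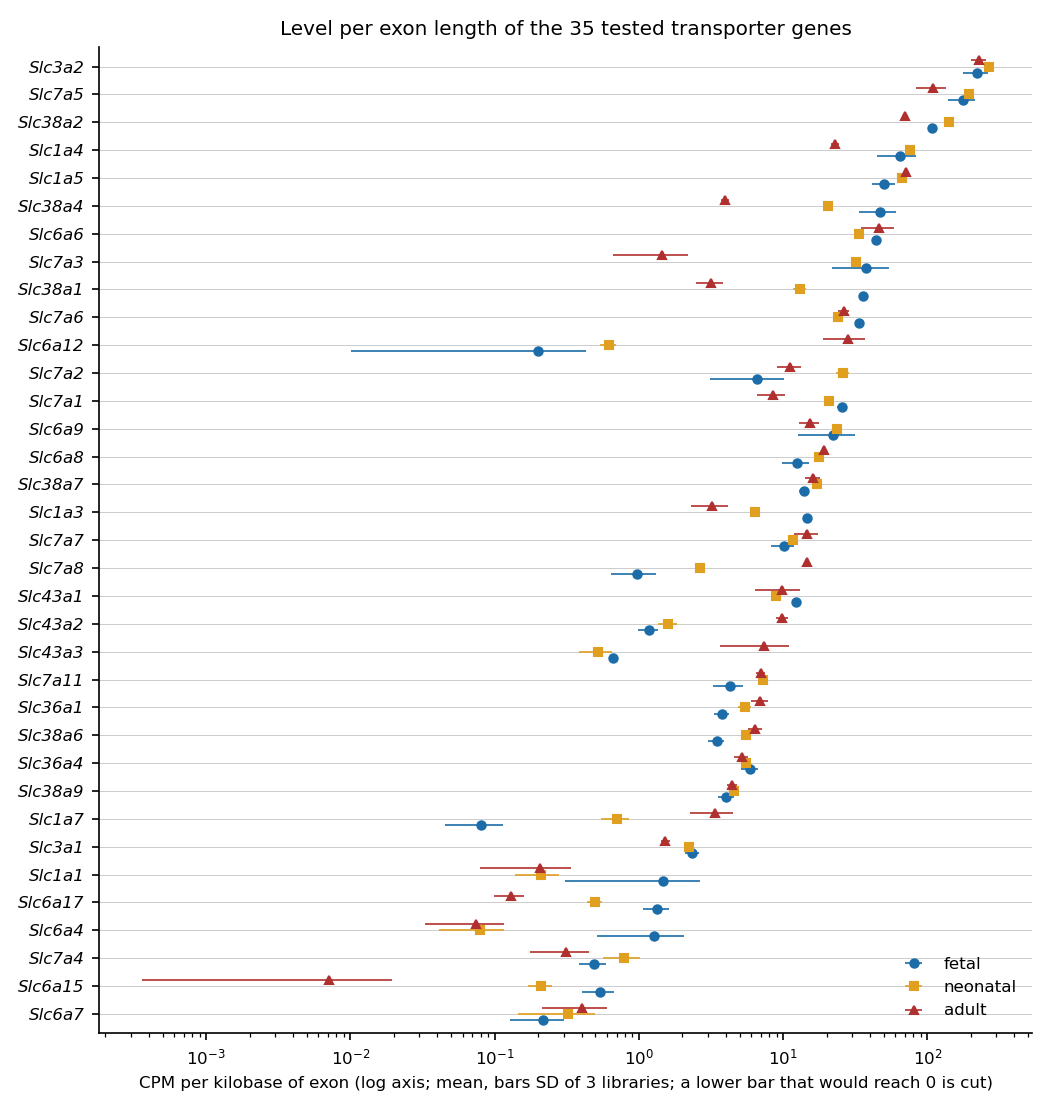
Mean CPM per kilobase of exon for the tested carrier genes at each age on a log axis, with bars of the SD over 3 libraries. Slc3a2 is the highest at all 3 ages, and the adult points of Slc38a1, Slc38a4 and Slc7a3 lie well left of the fetal points.

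Genes that work with these carriers were counted from lists of known pathway members, to be read against the shares of all genes called in each pair, given above. The list of the amino acid response holds Atf4, genes known as its targets, and the kinase genes Eif2ak4 and Eif2ak3, which act upstream of it. Of its 24 tested genes, 5 were called higher and 2 lower from fetal to neonatal cultures. From fetal to adult cultures the counts were 7 and 8, and from neonatal to adult cultures 5 and 10. Cth, which makes cysteine, was at 22.6 to 32.6 CPM in fetal, 19.7 to 20.4 in neonatal and 3.82 to 5.46 in adult libraries and fell, with -2.68 log2 units (SE 0.18, edgeR adjusted p = 1.10e-06) from fetal to adult. Atf3, a stress-induced repressor, was at 8.96 to 12.3 CPM in fetal, 9.76 to 10.8 in neonatal and 60.1 to 124 in adult libraries and rose, with 3.08 log2 units (SE 0.25, edgeR adjusted p = 5.33e-06) over the same ages. Of 14 tested genes of serine, glycine and proline synthesis and proline breakdown, 2 and 3, 3 and 7, and 3 and 7 were called higher and lower in those pairs. Pepd, which releases proline from dipeptides, was at 25.7 to 26.4 CPM in fetal, 31.1 to 34.5 in neonatal and 111 to 142 in adult libraries and rose, with 2.29 log2 units (SE 0.10, edgeR adjusted p = 7.15e-08) from fetal to adult. Pycr1, the last step of proline synthesis, was at 26.7 to 43.2 CPM in fetal, 22.9 to 25.5 in neonatal and 7.73 to 9.51 in adult libraries and fell, with -2.08 log2 units (SE 0.18, edgeR adjusted p = 6.28e-06).

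Among 14 tested enzymes of glutamine, glutamate, aspartate and asparagine, 7 were called lower and 0 higher by edgeR from fetal to neonatal cultures, with 2 higher at an unadjusted p under 0.05 and 0 in DESeq2. From fetal to adult cultures 6 were higher and 5 lower, and from neonatal to adult cultures 8 and 3. Glul, glutamine synthetase, was at 80.04 to 151 CPM in fetal, 105 to 111 in neonatal and 571 to 775 in adult libraries and rose, with 2.63 log2 units (SE 0.24, edgeR adjusted p = 1.39e-05) from fetal to adult. Gpt2, an alanine transaminase, was at 44.3 to 51.8 CPM in fetal, 36.6 to 38.7 in neonatal and 11.4 to 17.1 in adult libraries and fell, with -1.80 log2 units (SE 0.14, edgeR adjusted p = 2.65e-06). For 15 tested arginine, polyamine and nitric oxide genes the calls higher and lower by edgeR were 0 and 4, 8 and 4, and 8 and 3, where the 0 stood at 1 for an unadjusted p under 0.05 and at 0 in DESeq2. Sat1, which acetylates polyamines, was at 97.3 to 119 CPM in fetal, 93.1 to 99.5 in neonatal and 379.8 to 398 in adult libraries and rose, with 1.80 log2 units (SE 0.086, edgeR adjusted p = 1.58e-07) from fetal to adult. Azin1, which blocks the inhibitor of ornithine decarboxylase, was at 196 to 273 CPM in fetal, 216 to 241 in neonatal and 90.4 to 104 in adult libraries and fell, with -1.25 log2 units (SE 0.12, edgeR adjusted p = 1.16e-05).

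For 11 tested genes of branched-chain and tryptophan breakdown the calls were 0 and 0, 3 and 3, and 3 and 4. The 0 and 0 between the younger ages were from edgeR, with 2 higher and 1 lower at an unadjusted p under 0.05 and 0 and 0 in DESeq2. Bcat2, the mitochondrial branched-chain transaminase, was at 50.03 to 58.1 CPM in fetal, 57.2 to 59.9 in neonatal and 77.7 to 86.3 in adult libraries and rose, with 0.61 log2 units (SE 0.074, edgeR adjusted p = 6.05e-05) from fetal to adult. Dbt, a subunit of the complex that acts next, was at 58.4 to 61.04 CPM in fetal, 63.7 to 71.3 in neonatal and 43.4 to 47.1 in adult libraries and fell, with -0.41 log2 units (SE 0.066, edgeR adjusted p = 0.000427). For 11 tested glutathione and cysteine genes the calls were 1 and 3, 4 and 3, and 3 and 1. Gpx4, the glutathione peroxidase of lipid peroxides, was at 108 to 137 CPM in fetal, 122 to 126 in neonatal and 251 to 283 in adult libraries and rose, with 1.08 log2 units (SE 0.091, edgeR adjusted p = 5.47e-06), and Cth, named above, is also of that list.

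Of 23 tested genes of amino acid sensing by mTORC1, 10 were called higher and 1 lower from fetal to neonatal, 12 and 2 from fetal to adult, and 9 and 3 from neonatal to adult cultures. Its leading genes by the F test, Lamtor4 and Lamtor3, encode parts of the complex that docks mTORC1 on lysosomes. Lamtor4 was at 30.3 to 36.01 CPM in fetal, 37.5 to 41.9 in neonatal and 99.5 to 109.7 in adult libraries and rose, with 1.66 log2 units (SE 0.086, edgeR adjusted p = 2.46e-07) from fetal to adult. Lamtor3 was at 39.6 to 44.4 CPM in fetal, 50.3 to 50.7 in neonatal and 95.6 to 98.3 in adult libraries and rose, with 1.21 log2 units (SE 0.062, edgeR adjusted p = 2.33e-07). The last list was of amino acid transporters outside the named families, and it also names Slc7a6os, which does not encode a carrier. For its 13 tested genes the calls by edgeR were 3 and 0, 8 and 2, and 7 and 1. There the 0 stood at 1 for an unadjusted p under 0.05 and at 0 in DESeq2. Slc15a3, a lysosomal carrier of histidine and small peptides known from immune cells, was at 5.205 to 7.18 CPM in fetal, 7.76 to 10.1 in neonatal and 95.8 to 109 in adult libraries and rose, with 4.11 log2 units (SE 0.14, edgeR adjusted p = 2.30e-08) from fetal to adult. Mfsd12, a lysosomal cysteine carrier, was at 6.904 to 10.4 CPM in fetal, 9.41 to 11.8 in neonatal and 45.1 to 45.7 in adult libraries and rose, with 2.34 log2 units (SE 0.15, edgeR adjusted p = 8.46e-07).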

How the data were processed

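Per the submitters' processing notes, reads were handled with FastQC, Trimmomatic 0.39, STAR 2.5.2b, Subread 1.6.3, featureCounts and DESeq2, and per the file headers featureCounts 1.6.3 made the counts from an rn6 annotation. Read layout and strand setting were not given in the sources used here, so overlapping antisense genes cannot be separated. The authors deposited raw counts per gene with exon lengths, and a normalized signal table, which was checked to equal the counts divided by 1 size factor per library in its 12786 genes and was not tested. Counts of all 9 libraries were fitted with edgeR 4.0.16 (R 4.3.3; TMM scaling, filterByExpr, robust quasi-likelihood F test, age as the only term) and adjusted by Benjamini-Hochberg over 11337 genes. SEs are the size of the log2 fold change divided by the square root of its F value in that fit. The fit was also tested on simulated counts with the same spread for all genes and no deviating library. That run therefore does not cover a library such as fetal replicate 3. CPM use TMM-scaled library totals; 13392825 to 22850491 counts per library set their precision. Groups came from the sample titles. Values in every library are given for tested members with a mean of at least 10 CPM at 1 age, or called with a log2 fold change of at least 1 in size and at least 1 CPM; from each pathway list, the 2 genes with the smallest F-test p are named. DESeq2 1.42.0, other scalings, no filter, 2 ages alone, a replicate block and leaving out each library were tried. Promoter sequences are from RefSeq (GRCr8), gene positions from rn6. The gene set and the lists were chosen with earlier results of these data known.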

Additional observations from a re-analysis of the deposited data

How the results depend on the processing

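Of 96 log2 fold changes of 32 carrier genes, 61 were called, 51 of these in every alternative run that tested them. None of the 96 reversed with a call. Leaving out 1 library at a time gave 13 to 22 called carrier genes from fetal to neonatal, 26 to 28 from fetal to adult and 17 to 24 from neonatal to adult cultures, and 26 to 31 by the F test, against 19, 25, 19 and 27 with all 9 libraries. Over all genes, the count from fetal to neonatal cultures ranged from 2476 to 4679 when 1 library was left out, against 4114 with all of them. It was 2607, 2476 and 2575 without neonatal replicate 1, 2 or 3. Without fetal replicate 1, 2 or 3 it was 3844, 3748 and 4679, and without adult replicate 1, 2 or 3 it was 4411, 3726 and 4062. The cause of this difference was not tested. No pairing of the libraries by replicate number was detected: deviations of same-numbered libraries from their age means correlated at -0.0649 to 0.0521. With 3 libraries per age this check cannot exclude a pairing. With a replicate block, 19, 26 and 19 carrier genes and 3713, 7801 and 6985 of all genes were called in the 3 pairs, and 26 carrier genes by the F test. Under the block the call of Slc38a7 was lost and those of Slc6a12 and Slc7a2 named with it in the report were gained. The genes at a few counts per library, such as Slc6a15 and Slc1a1, are limited by depth, since 3 counts are 0.132 to 0.229 CPM.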
